A study of Mus musculus with 6 samples.

Results

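The levels of 9 genes that carry calcium between the endoplasmic reticulum (ER) and mitochondria were examined in RNA sequencing of mouse lung endothelial isolates from a study of endothelial FUNDC1 deficiency and pulmonary hypertension. They were given by name as Itpr1, Itpr2, Itpr3, Vdac1, Vdac2, Vdac3, Mcu, Micu2 and Rmdn3, and all 9 were found among the 56941 genes of the count table. All 9 also passed the filter on low counts that left 18562 genes for testing. The EC-KO group had 3 libraries with the genotype FUNDC1-KO, titled EC-KO, which with the series title reads as an endothelial knockout. The FL group had 3 libraries with the genotype FUNDC1-FLOX, the floxed allele without the knockout. Titles in both groups also hold the term PAECs, which they do not spell out. In both groups primary endothelial cells were taken from mouse lungs with magnetic beads, freed of dead cells and cultured in a medium for endothelial cells that held 10% serum, and polyA RNA was sequenced. The labels name neither the Cre line, the age of the mice nor the antibody on the beads, and nothing in them states that libraries came from separate animals. The p-values therefore measure the spread between these libraries, which may be technical.

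IP3 receptors are calcium channels of the ER membrane that open when the messenger inositol trisphosphate binds. At contact sites between the organelles, the released calcium passes the outer mitochondrial membrane through the porins called VDACs and enters the matrix through the mitochondrial calcium uniporter, where it stimulates dehydrogenases. FUNDC1, a mitophagy receptor of the outer mitochondrial membrane, is also known from mouse heart cells to sit at these contact sites and to bind the IP3 receptor encoded by Itpr2.

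Depth was 26658998 to 34306962 counts per library. Levels are given as CPM, counts scaled to library size with the TMM method, or as TPM where genes are compared with each other, since TPM also divides by gene length. The targeted gene Fundc1 was at 14.1, 18.2 and 12.8 CPM in EC-KO 1, 2 and 3, against 25.1, 32.0 and 30.7 CPM in FL 1, 2 and 3 (-0.96 ± 0.19 on the log2 scale, SE; edgeR's quasi-likelihood test, adjusted p = 0.00796), so its transcripts were lower but present in each EC-KO library. The count covers the whole gene, including exons outside any deleted part. Levels of cell type markers differed between groups too. Of 16 pan-endothelial markers 11 were called lower in EC-KO and 0 higher, with summed levels of 3706 to 7434 CPM in EC-KO against 9901 to 13892 CPM in FL. Of 14 epithelial markers 13 were called higher, with summed levels of 11473 to 17086 CPM in EC-KO and 1850 to 4443 CPM in FL. Of 10 fibroblast markers 7 were called higher (789 to 1812 CPM in EC-KO, 386 to 488 CPM in FL). Of 10 macrophage markers 10 were called lower (summed level 591 to 930 CPM in EC-KO, 3254 to 6193 CPM in FL). Smooth muscle and pericyte markers were lower in 8 of 10 cases (296 to 437 CPM in EC-KO, 622 to 872 CPM in FL) and lymphatic markers in 5 of 7 (532 to 1058 CPM in EC-KO, 1893 to 2683 CPM in FL). Erythroid and platelet markers were higher in 6 of 9 tested (122 to 244 CPM in EC-KO, 32.6 to 104 CPM in FL), while lymphocyte sums overlapped (264 to 681 CPM in EC-KO, 423 to 622 CPM in FL), with 1 of 10 markers called higher and 2 lower. In such bulk samples fewer cells of a type and less RNA per cell cannot be told apart. The part of these marker differences in the values below was not tested. EC-KO 2 stood apart within its group: its mean over the pan-endothelial markers lay 0.74 below FL on the log2 scale, against 1.71 below FL in each of EC-KO 1 and EC-KO 3.

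Of the 9 calcium transfer genes 2 fell in EC-KO, the IP3 receptor gene Itpr2 and the uniporter gatekeeper gene Micu2, and 0 rose. Calls were made at an adjusted p under 0.05 in edgeR's quasi-likelihood test. Over all genes tested, 13.5% were called lower and 13.5% higher (27.1% in all), so 2 of 9 is not a share that stands out from the background. DESeq2 and limma-voom also called 2 lower and 0 higher, and at an unadjusted p under 0.05 there were 3 lower and 1 higher, against 40.6% of all genes in either direction. The groups did not overlap in 3 of the 9, against 45.4% of all genes tested, and the median log2 fold change was -0.16 for the 9 genes and 0.03 for all genes. The count of genes called lower was 4 without EC-KO 2 and 1 without EC-KO 3, FL 2 or FL 3, and 1 gene was called higher without EC-KO 2. Over all genes, 5029 calls among 18562 genes tested became 6740 among 19182 without EC-KO 2, so calls rose there for genes at large as well. They became 2832 without EC-KO 1, 3422 without EC-KO 3, 4366 without FL 1, 2626 without FL 2 and 2547 without FL 3.

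**Figure D1:**
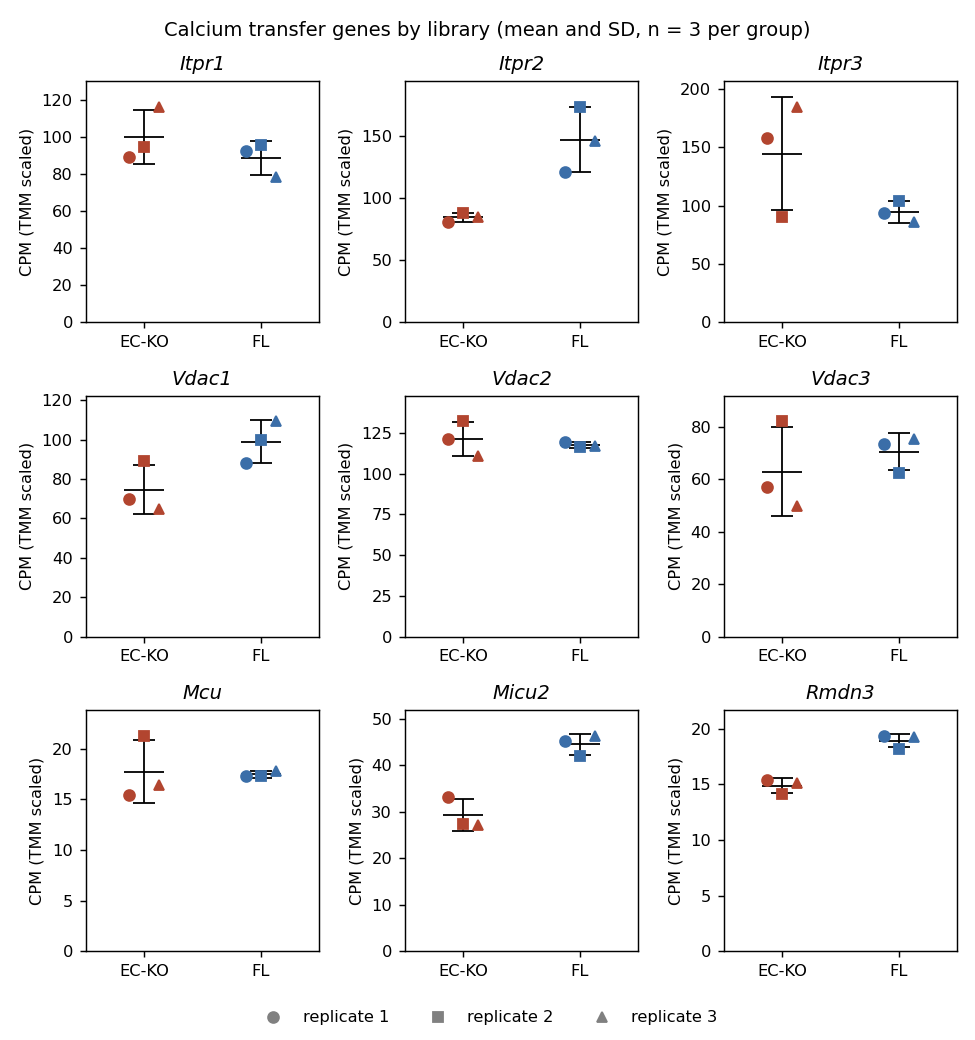
Level of each calcium transfer gene in CPM after TMM scaling (vertical axes, from 0), with EC-KO libraries on the left and FL libraries on the right of each panel. Symbols are single libraries, and the horizontal lines are the mean and SD of 3 libraries. The groups are apart for Itpr2, Micu2 and Rmdn3, and EC-KO 2 (square) lies away from the other EC-KO libraries for Itpr3, with 90.6 CPM.

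Of the 3 IP3 receptor genes Itpr2 fell, and Itpr1 and Itpr3 did not pass the test. Itpr2, which encodes the receptor subtype with the highest affinity for its ligand, was at 80.6, 87.4 and 84.8 CPM in EC-KO 1, 2 and 3, against 121, 173 and 146 CPM in FL 1, 2 and 3. Every EC-KO library was below every FL library, and the EC-KO libraries lay closer together than the FL libraries. The means were 84.3 ± 3.46 CPM in EC-KO and 147 ± 26.2 CPM in FL (SD, n = 3 each), and the log2 fold change was -0.80 ± 0.17 (SE, adjusted p = 0.0101 in edgeR). The call was kept without any single library, with adjusted p-values from 0.00550 without EC-KO 2 to 0.0499 without FL 2.

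Itpr3, whose product is the IP3 receptor subtype common in epithelium, was at 158, 90.6 and 185 CPM in EC-KO 1, 2 and 3, against 93.8, 104 and 85.9 CPM in FL 1, 2 and 3. Values above every FL library were seen in EC-KO 1 and EC-KO 3, while EC-KO 2 lay within the FL range. The log2 fold change was 0.61 ± 0.25 (SE) and did not pass the test (adjusted p = 0.0982 in edgeR). Without EC-KO 2 it was 0.83 and passed (adjusted p = 0.00299). Leaving out each library in turn gave 0.37 to 0.83, so the fit without EC-KO 2 was the high end. EC-KO 2 was also the library with the highest sums of epithelial (17086 CPM) and fibroblast (1812 CPM) markers and the highest pan-endothelial sum in its group (7434 CPM). The part of these markers in the Itpr3 values was not tested.

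Itpr1, which encodes the receptor subtype best known from neurons, was at 88.9, 94.5 and 116 CPM in EC-KO 1, 2 and 3, against 92.1, 95.8 and 78.4 CPM in FL 1, 2 and 3. The groups overlapped, and the log2 fold change of 0.17 ± 0.17 (SE) did not pass the test (adjusted p = 0.478 in edgeR).

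Compared per length, the shares of Itpr2 and Itpr3 among the IP3 receptor transcripts did not overlap between the groups, while the Itpr1 share and the sum of the 3 genes did. Itpr2 made up 19.6%, 28.0% and 17.6% of the summed TPM of the 3 receptor genes in EC-KO 1, 2 and 3, against 34.6%, 41.1% and 41.7% in FL 1, 2 and 3. Itpr3 made up 63.0%, 47.6% and 62.9% in EC-KO 1, 2 and 3, against 44.1%, 40.5% and 40.3% in FL 1, 2 and 3. For both genes no EC-KO library reached the FL range, and EC-KO 2 was the nearest to it. The exact permutation test over libraries gave p = 0.1 for each (two-sided), the smallest p that 3 against 3 libraries allow. After adjustment over 8 shares and sums it was 0.16. Shares within a family are tied, so a lower Itpr2 raises the share of Itpr3. In EC-KO 2 Itpr3 itself was at 31.7 TPM, below the 36.0, 40.9 and 33.0 TPM of FL 1, 2 and 3. Itpr1 took a share of 20.5 ± 3.59% in EC-KO and 19.3 ± 1.79% in FL (SD, n = 3 each; exact permutation p = 0.7), and that difference of 1.20 percentage points was -0.79 without EC-KO 2. The sum of the 3 genes was 97.4, 66.7 and 125 TPM in EC-KO 1, 2 and 3, against 81.7, 101 and 82.1 TPM in FL 1, 2 and 3 (exact permutation p = 0.7), and its difference changed sign without EC-KO 3.

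**Figure D2:**
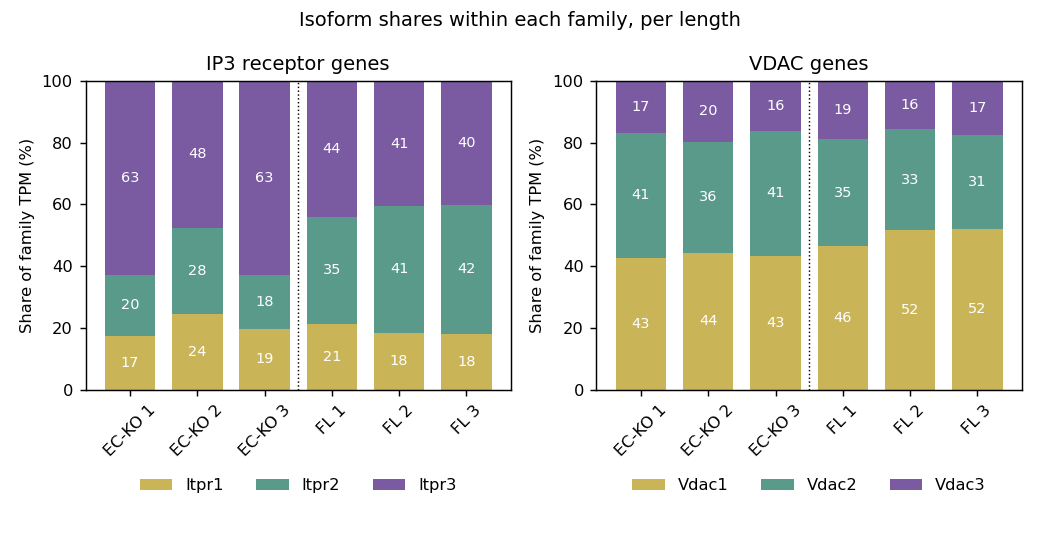
Share of each gene in the summed TPM of its family, in percent (vertical axes), for the 3 IP3 receptor genes on the left and the 3 VDAC genes on the right. Each bar is 1 library, EC-KO before the dotted line and FL after it. The Itpr2 share is 17.6% to 28.0% in EC-KO and 34.6% to 41.7% in FL, and the Vdac1 share is 42.7% to 44.2% in EC-KO and 46.5% to 52.0% in FL.

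The ratio of Itpr3 to Itpr2 TPM within a library carries the same contrast, and it too rises where Itpr2 is lower. It was 3.22, 1.70 and 3.58 in EC-KO 1, 2 and 3, against 1.27, 0.99 and 0.97 in FL 1, 2 and 3. Itpr3 transcripts thus outnumbered Itpr2 transcripts per length in all 3 EC-KO libraries, and the FL libraries had about equal levels per length. These levels rest on the deposited lengths, 14802 bases for Itpr2 and 9019 for Itpr3. In CPM, without length, Itpr2 was above Itpr3 in every FL library. The difference in the log2 ratio was 1.34 (exact permutation p = 0.1, adjusted over 11 ratios 0.183). The ratio of Itpr2 to Itpr1 was 1.06 ± 0.13 in EC-KO and 2.06 ± 0.38 in FL (SD, n = 3 each; exact permutation p = 0.1), with no overlap. The ratio of Itpr3 to Itpr1 overlapped between the groups (2.93 ± 0.87 in EC-KO and 2.17 ± 0.085 in FL, SD, n = 3 each; exact permutation p = 0.4).

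The VDAC genes encode the outer membrane porins, of which VDAC1 is the one tied to IP3 receptors through the chaperone that Hspa9 encodes. None of the 3 was called by edgeR, DESeq2 or limma-voom over all 6 libraries, and 1 of them, Vdac1, was under an unadjusted p of 0.05 in edgeR. Vdac1 was at 70.0, 89.0 and 65.0 CPM in EC-KO 1, 2 and 3, against 87.9, 99.97 and 109 CPM in FL 1, 2 and 3. Values below every FL library were seen in EC-KO 1 and EC-KO 3, and EC-KO 2 lay above FL 1. The log2 fold change was -0.41 ± 0.17 (SE, adjusted p = 0.111 by edgeR), and -0.58 with a call without EC-KO 2 (adjusted p = 0.0131). Its range when each library was left out in turn was -0.58 to -0.33. Vdac2, which also restrains the cell death protein BAK, was at 121, 132 and 111 CPM in EC-KO 1, 2 and 3, against 119.5, 116 and 117 CPM in FL 1, 2 and 3. The groups overlapped, the FL libraries were close to each other, and the log2 fold change was 0.04 ± 0.15 (SE, adjusted p = 0.845 in edgeR).

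Vdac3, the isoform with the weakest pore activity in reconstituted membranes, was at 57.0, 82.0 and 49.7 CPM in EC-KO 1, 2 and 3, against 73.6, 62.4 and 75.4 CPM in FL 1, 2 and 3. EC-KO 2 had the highest value of the 6 libraries and EC-KO 3 the lowest. The log2 fold change of -0.16 ± 0.21 (SE) did not pass the test (adjusted p = 0.586 in edgeR), and without EC-KO 2 it was -0.43 and did (adjusted p = 0.0455). Its range when each library was left out in turn was -0.43 to -0.03.

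Summed over the family, VDAC transcripts were at 219.6, 243 and 220.2 TPM in EC-KO 1, 2 and 3, against 250.1, 262 and 278 TPM in FL 1, 2 and 3 (exact permutation p = 0.1, adjusted 0.16). The groups did not overlap in this sum, but TPM values are not TMM scaled. In CPM the groups overlapped for each of the 3 genes. EC-KO 2 there had the highest Vdac2 (132 CPM) and Vdac3 (82.0 CPM) of the 6 libraries, so the separation is stated for TPM only. Vdac1 was the most abundant of the family per length in all 6 libraries, with 43.4 ± 0.79% of the sum in EC-KO and 50.01 ± 3.07% in FL (SD, n = 3 each; exact permutation p = 0.1). Vdac2 had 39.1 ± 2.60% in EC-KO and 32.8 ± 2.04% in FL (SD, n = 3 each; exact permutation p = 0.1). Neither share overlapped between the groups, but a lower Vdac1 by itself raises the share of Vdac2. The ratio of Vdac2 to Vdac1 was accordingly 0.95, 0.82 and 0.94 in EC-KO 1, 2 and 3, against 0.75, 0.64 and 0.59 in FL 1, 2 and 3. The order of Vdac1 over Vdac2 rests on the deposited lengths, 2620 bases for Vdac1 and 4769 for Vdac2. In CPM, without length, Vdac2 was above Vdac1 in all 6 libraries. The share of Vdac3 was 17.5 ± 1.94% in EC-KO and 17.2 ± 1.63% in FL (SD, n = 3 each; exact permutation p = 0.9), and its ratios to Vdac1 and Vdac2 overlapped between the groups (exact permutation p = 0.3 for each). The difference in the Vdac3 share changed sign without EC-KO 2 and without FL 2.

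In the uniporter, Mcu encodes the pore and Micu2 a calcium-binding gatekeeper that helps to keep the pore shut at low calcium. Mcu was at 15.4, 21.2 and 16.4 CPM in EC-KO 1, 2 and 3, against 17.2, 17.3 and 17.8 CPM in FL 1, 2 and 3. The FL libraries were nearly equal and lay within the EC-KO range, and the log2 fold change was 0.02 ± 0.18 (SE, adjusted p = 0.946 in edgeR), with a value of -0.16 without EC-KO 2. Micu2 was at 33.2, 27.4 and 27.1 CPM in EC-KO 1, 2 and 3, against 45.2, 42.0 and 46.3 CPM in FL 1, 2 and 3. All EC-KO libraries were below all FL libraries. The means were 29.3 ± 3.45 CPM in EC-KO and 44.5 ± 2.26 CPM in FL (SD, n = 3 each), which gave -0.60 ± 0.16 on the log2 scale (SE, adjusted p = 0.0215 in edgeR). The call was lost without EC-KO 3 (adjusted p = 0.0676), FL 2 (0.0608) or FL 3 (0.0733), with log2 fold changes of -0.57, -0.65 and -0.61.

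Within a library there were 4.85, 2.91 and 3.71 Micu2 transcripts per length for each Mcu transcript in EC-KO 1, 2 and 3, against 5.90, 5.46 and 5.84 in FL 1, 2 and 3. The groups did not overlap, and the EC-KO libraries were spread more widely (difference in the log2 ratio -0.62, exact permutation p = 0.1, adjusted 0.183). Mcub, which encodes a pore subunit that lowers uniporter activity, stood at 1.85 ± 0.23 per Mcu in EC-KO and 2.91 ± 0.21 in FL (SD, n = 3 each; exact permutation p = 0.1), again without overlap.

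**Figure D3:**
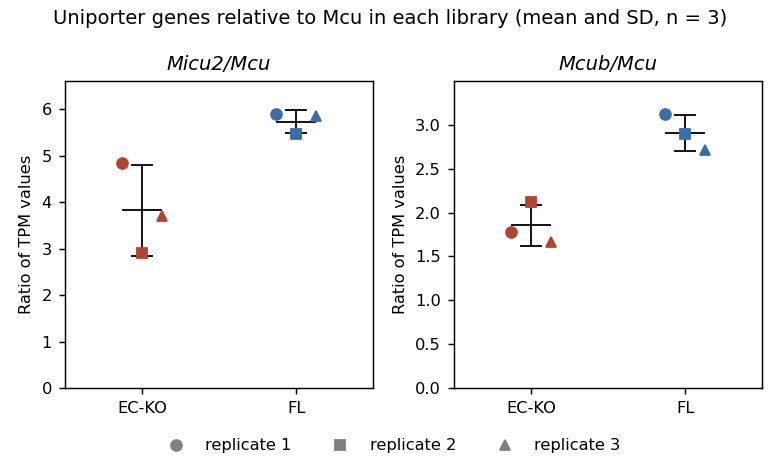
Ratios of Micu2 and Mcub TPM to Mcu TPM in each library (vertical axes, from 0), EC-KO on the left and FL on the right of each panel, with the mean and SD of 3 libraries. Micu2 per Mcu is 2.91 to 4.85 in EC-KO and 5.46 to 5.90 in FL, and Mcub per Mcu is 1.67 to 2.11 in EC-KO and 2.71 to 3.12 in FL.

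Rmdn3 encodes an outer mitochondrial membrane protein, also called PTPIP51, that tethers mitochondria to the ER by binding the product of Vapb. It was at 15.4, 14.1 and 15.1 CPM in EC-KO 1, 2 and 3, against 19.3, 18.2 and 19.2 CPM in FL 1, 2 and 3. The groups did not overlap and the libraries within each were close, at 14.9 ± 0.66 CPM in EC-KO and 18.9 ± 0.62 CPM in FL (SD, n = 3 each). The log2 fold change of -0.35 ± 0.16 (SE) did not pass the test over all genes (adjusted p = 0.131 in edgeR, unadjusted p = 0.0546), and stayed between -0.34 and -0.38 when each library was left out. Vapb, at 54.5, 85.0 and 50.8 CPM in EC-KO 1, 2 and 3 and 69.8, 74.7 and 83.8 CPM in FL 1, 2 and 3, was not called (-0.26, adjusted p = 0.389), but was without EC-KO 2 (-0.56, adjusted p = 0.0133). Leaving out each library in turn gave -0.56 to -0.14 for Vapb. The ratio of Rmdn3 to Vapb overlapped, at 0.50 ± 0.14 in EC-KO and 0.50 ± 0.049 in FL (SD, n = 3 each; exact permutation p = 1). The direction of this ratio changed without EC-KO 2 and without FL 1.

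**Figure D4:**
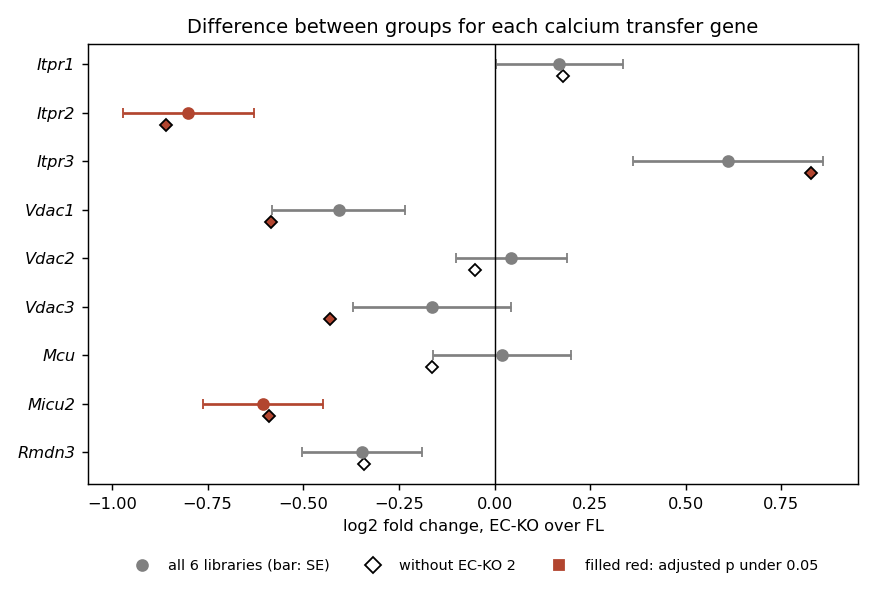
Log2 fold change of EC-KO over FL for each calcium transfer gene (horizontal axis). Circles with SE bars use all 6 libraries, diamonds leave out EC-KO 2, and red fill marks an adjusted p under 0.05 in edgeR. Itpr2 (-0.80) and Micu2 (-0.60) are filled in both fits, while Itpr3, Vdac1 and Vdac3 are filled only without EC-KO 2. Fits that leave out another library are not drawn.

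In order of mean TPM, EC-KO libraries had Vdac1 (98.8), Vdac2 (88.6), Itpr3 (57.4), Vdac3 (40.0), Micu2 (33.2), Itpr2 (19.9), Itpr1 (19.2), Rmdn3 (14.8) and Mcu (8.86). FL libraries had Vdac1 (132), Vdac2 (86.1), Micu2 (50.4), Vdac3 (45.3), Itpr3 (36.7), Itpr2 (34.7), Rmdn3 (18.7), Itpr1 (16.9) and Mcu (8.79). In both groups Vdac1 and Vdac2 headed the order, Vdac3 stood at rank 4 and Mcu, the uniporter pore, came last. This order rests on the deposited gene lengths. Neighbours whose ranges over libraries overlapped in EC-KO were Itpr3 and Vdac3, Vdac3 and Micu2, Itpr2 and Itpr1, and Itpr1 and Rmdn3. In FL they were Vdac3 and Itpr3, Itpr3 and Itpr2, and Rmdn3 and Itpr1.

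By a distance over all 6 libraries, the root mean square difference of log2 CPM values centred on each gene, the profiles nearest to Itpr2 among 13520 genes were those of Wdr7 (distance 0.034), Ccng1 (0.047) and Fcho2 (0.051). Nearest to Micu2 were Ciao2a (0.051), Tcea1 (0.056) and H3f3a (0.058), the last of which shares sequence with other histone H3.3 copies, so that its count is uncertain.

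Itpr2 and Micu2 were the genes that fell. Itpr3 had the highest mean share of receptor TPM in both groups (57.8% in EC-KO, 41.6% in FL). The 250 bases before the annotated start of these genes are given for comparison of their promoters. They come from RefSeq on GRCm38.p6 and read 5′ to 3′ on the strand of the gene. Capitals mark the core motif of the aryl hydrocarbon receptor, GCGTG, on either strand. The windows are chr6:146502224-146502473 on the minus strand for Itpr2, chr14:57999263-57999512 on the minus strand for Micu2 and chr17:27057054-27057303 on the plus strand for Itpr3.
Itpr2: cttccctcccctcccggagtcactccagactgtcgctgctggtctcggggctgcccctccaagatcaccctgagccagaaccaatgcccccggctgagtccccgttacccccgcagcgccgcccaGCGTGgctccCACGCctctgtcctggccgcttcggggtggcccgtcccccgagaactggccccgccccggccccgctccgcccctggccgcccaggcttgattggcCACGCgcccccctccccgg
Micu2: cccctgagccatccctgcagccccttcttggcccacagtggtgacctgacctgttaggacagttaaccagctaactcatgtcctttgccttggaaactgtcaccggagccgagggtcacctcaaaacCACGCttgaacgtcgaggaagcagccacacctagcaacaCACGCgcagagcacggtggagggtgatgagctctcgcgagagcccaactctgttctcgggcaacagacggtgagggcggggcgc
Itpr3: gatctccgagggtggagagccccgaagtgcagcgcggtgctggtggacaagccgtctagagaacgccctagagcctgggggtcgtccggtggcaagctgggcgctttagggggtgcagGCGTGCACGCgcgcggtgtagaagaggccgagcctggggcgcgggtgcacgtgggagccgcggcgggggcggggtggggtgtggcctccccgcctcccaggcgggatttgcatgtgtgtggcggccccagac

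Promoter windows were matched for 6 of the 9 genes (Itpr2, Itpr3, Mcu, Micu2, Rmdn3 and Vdac1, the last with 2 start sites), and Itpr1, Vdac2 and Vdac3 were not matched. GCGTG stood in the windows of all 6, with 3 copies in Itpr2, 2 in Micu2 and 2 in Itpr3, against 28.2% of 32851 RefSeq windows of this length. The motif holds a CG dinucleotide, and the windows of the 6 genes held 14 to 25 of these where the median window held 6.0. The cyclic AMP response motif TGACGT was found in 1 of the 6 genes, Vdac1, and in 6.47% of all windows. The motif of the mitochondrial biogenesis factor NRF1 stood in none of the 6 and in 3.74% of all windows, and TATAAA in none of the 6 and in 12.4%. Both strands were searched, GCGTG and the NRF1 motif can overlap, and a match is a description of the letters only.

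Genes that make IP3 or act on its receptors changed in both directions. Of 26 such genes 10 fell and 4 rose, where 13.5% of all genes tested fell and 13.5% rose, and the list median was -0.40 against 0.03 for all genes tested. Falls included Plcb2 (-1.28, adjusted p = 0.00336 in edgeR) and Plcb1 (-1.13, 0.0157), phospholipases that cut the membrane lipid PIP2 to form IP3. Plcb1 was at 27.7, 57.3 and 35.8 CPM in EC-KO 1, 2 and 3, against 76.8, 108 and 80.4 CPM in FL 1, 2 and 3. Plcb2 is also known as a blood cell isoform. Of the blood cell markers, those of macrophages were lower in EC-KO (591 to 930 CPM, against 3254 to 6193 CPM in FL). Erythroid and platelet markers were higher (122 to 244 CPM in EC-KO, 32.6 to 104 CPM in FL), and lymphocyte sums overlapped. The part of these cells in the Plcb2 values was not tested. Bcl2, whose product binds and restrains IP3 receptors, was at 24.2, 23.4 and 24.3 CPM in EC-KO 1, 2 and 3, against 40.1, 49.7 and 44.3 CPM in FL 1, 2 and 3 (-0.90, adjusted p = 0.00407), and the groups did not overlap. Rises included Itpkc (2.01, adjusted p = 0.00143), a kinase that removes IP3 by phosphorylating it, at 92.1, 156 and 76.2 CPM in EC-KO 1, 2 and 3, against 29.3, 23.4 and 27.6 CPM in FL 1, 2 and 3. Plcd4 (1.96, adjusted p = 0.00521) and Bok (1.17, adjusted p = 0.0299), a BCL2 relative that binds IP3 receptors, also rose at low levels. Plcd4 averaged 2.38 CPM in EC-KO and 0.61 CPM in FL, and Bok 4.50 CPM in EC-KO and 1.995 CPM in FL. The balance of falls and rises depended on single libraries. There were 3 falls and 5 rises without EC-KO 3, and 3 falls and 2 rises without FL 3. Without EC-KO 1 or FL 2 there were 2 falls and 2 rises. Without EC-KO 2 there were 14 falls and 2 rises, in a fit that also called more of all genes (6740, against 5029). Plcb1 was not called without EC-KO 1 (0.0537) or FL 2 (0.0630), nor Bok without EC-KO 1 (0.0788), EC-KO 2 (0.0574), FL 2 (0.0883) or FL 3 (0.0658).

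Of 21 genes of the ER calcium store, its pumps and store-operated calcium entry 6 fell and 0 rose (median -0.10). Of all genes tested 27.1% were called in either direction and 13.5% fell. The list, called store genes below, includes plasma membrane channels of the Orai family. An unadjusted p under 0.05 was reached by 7 lower and 1 higher, DESeq2 called 6 lower and 1 higher, and limma-voom 6 lower and 0 higher. Ero1a, an oxidase of ER protein folding known to activate IP3 receptors, was at 64.9, 91.6 and 64.4 CPM in EC-KO 1, 2 and 3, against 182, 162 and 167 CPM in FL 1, 2 and 3 (-1.21, adjusted p = 0.00240 in edgeR). The store sensor gene Stim2 (-0.85, adjusted p = 0.0162) and the plasma membrane channel gene Orai3 (-0.89, adjusted p = 0.0165) fell, as did Atp2a3, which encodes the pump SERCA3 (-0.67, adjusted p = 0.0256). Atp2a3 was at 269, 320.1 and 294 CPM in EC-KO 1, 2 and 3, against 389, 468 and 544 CPM in FL 1, 2 and 3, while the widely expressed pump gene Atp2a2 overlapped (259 ± 52.1 CPM in EC-KO and 272 ± 8.08 CPM in FL, SD, n = 3 each; adjusted p = 0.812). The falls numbered 1 without EC-KO 1 or FL 2 and 2 without EC-KO 3 or FL 3. Stim2 was not called without EC-KO 1 (0.0686), EC-KO 3 (0.0557) or FL 2 (0.0687), Orai3 not without EC-KO 1 (0.0617), FL 2 (0.0567) or FL 3 (0.0665), and Atp2a3 not without EC-KO 1 (0.0970), EC-KO 3 (0.0701), FL 2 (0.0823) or FL 3 (0.102).

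Among 14 other genes of the uniporter and of matrix calcium handling none was called in edgeR, DESeq2 or limma-voom (median -0.07). Of all genes tested 27.1% were called in edgeR. At an unadjusted p under 0.05 in edgeR there were 1 higher and 2 lower, against 40.6% of all genes in either direction. The groups did not overlap in 5 of the 14, against 45.4% of all genes tested. Mcub was at 5.23, 8.53 and 5.20 CPM in EC-KO 1, 2 and 3, against 10.2, 9.50 and 9.17 CPM in FL 1, 2 and 3, with no overlap (-0.61, adjusted p = 0.0922 in edgeR). It was called without EC-KO 2 (-0.92, adjusted p = 0.00746) and was then the 1 gene of the list called lower. Leaving out each library in turn gave -0.92 to -0.49 for Mcub. Smdt1, which encodes the EMRE subunit that joins the pore to its gatekeepers, was at 28.8, 35.2 and 22.9 CPM in EC-KO 1, 2 and 3, against 23.1, 18.6 and 21.1 CPM in FL 1, 2 and 3 (0.47, adjusted p = 0.107). The most abundant gene of the list, Ghitm, which encodes a calcium and proton exchanger of the inner membrane, was at 225 ± 19.5 CPM in EC-KO and 217 ± 9.53 CPM in FL (SD, n = 3 each; 0.05, adjusted p = 0.829).

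Of 25 tethers and organisers of contact sites 5 fell and 1 rose (median -0.16), which together is not above the 27.1% called among all genes tested. Of all genes tested 13.5% were called lower, and 1 of the 5 falls here is Fundc1 itself. Besides Fundc1, the targeted gene, the falls with the smallest p were Mospd2, which encodes an ER tether of the VAP type (36.1 ± 9.04 CPM in EC-KO and 85.8 ± 9.98 CPM in FL, SD, n = 3 each; -1.25, adjusted p = 0.00332 in edgeR), and Tmx1, which encodes an ER thioredoxin enriched at contact sites (41.3 ± 3.99 CPM in EC-KO and 70.0 ± 7.48 CPM in FL, SD, n = 3 each; -0.76, adjusted p = 0.00912). Hspa9, the chaperone gene named above as the link between VDAC1 and IP3 receptors, rose, at 303, 298 and 288 CPM in EC-KO 1, 2 and 3, against 204, 191 and 177 CPM in FL 1, 2 and 3 (0.64, adjusted p = 0.0147). The groups did not overlap for Hspa9, although it was not called without EC-KO 1 (0.0533), FL 2 (0.0694) or FL 3 (0.0910), and the list then had 0 rises. Mfn2, which encodes a fusion protein that also bridges the organelles, overlapped (-0.16, adjusted p = 0.468). The falls of the list numbered 9 without EC-KO 2, where calls over all genes rose as well (6740, against 5029).

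Around the VDACs, Hk2 and Ppif rose. Hk2, a hexokinase that docks on VDAC1, was at 269.7, 429 and 245 CPM in EC-KO 1, 2 and 3, against 159.9, 106 and 89.3 CPM in FL 1, 2 and 3 (1.41, adjusted p = 0.00791 in edgeR). Ppif, which encodes the cyclophilin of the permeability transition pore, was at 17.3 ± 2.41 CPM in EC-KO and 9.01 ± 0.87 CPM in FL (SD, n = 3 each; 0.94, adjusted p = 0.00796). The cell death genes Bid (-1.18, adjusted p = 0.00340), Mcl1 (-0.58, adjusted p = 0.0401) and Bak1 (-0.58, adjusted p = 0.0476) fell, so that 2 of 11 genes rose and 3 fell (median -0.01), against 13.5% of all genes tested in each direction. Without EC-KO 1, EC-KO 3, FL 1, FL 2 or FL 3 the falls numbered 1, because Mcl1 (adjusted p from 0.0519 to 0.133) and Bak1 (from 0.0656 to 0.128) were not called in these fits.

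The list for calcium-sensitive matrix dehydrogenases had 10 genes, including phosphatases that act on pyruvate dehydrogenase. Whether each member responds to calcium was not tested. Of the 10 genes 2 rose and 1 fell (median 0.08), a share close to the 27.1% called among all genes tested. Pdp2 (0.87, adjusted p = 0.0137 in edgeR), a phosphatase that activates pyruvate dehydrogenase, and Pdhb (0.52, adjusted p = 0.0249), a subunit of that enzyme, rose. Ogdh (-0.58, adjusted p = 0.0463), the oxoglutarate dehydrogenase, fell. These 3 calls depended on single libraries. Pdp2 was not called without EC-KO 1, EC-KO 3, FL 2 or FL 3 (0.0571, 0.0505, 0.0650 and 0.0571), and neither Pdhb (from 0.0795 to 0.111) nor Ogdh (from 0.0700 to 0.156) without EC-KO 1, EC-KO 3, FL 1, FL 2 or FL 3. The rises numbered 1 without FL 1 and 0 in the other fits named for Pdp2, and the falls numbered 0 in the 5 fits named for Ogdh and 2 without EC-KO 2.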

How the data were processed

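The values used are whole, unnormalized counts for each Ensembl gene, as the authors deposited them. Tools listed in the submitters' processing notes are featureCounts 2.0.3 and STAR 2.7.10b, with mm10 as the build. The strand setting is not given in the sources used here. Gene lengths were taken from the same table, deposited by the authors. They count the exon bases of each gene, so orders, shares and ratios between genes in TPM rest on them. A further 2 per-sample columns match no sample and were not used. Gene symbols came from GENCODE M21 by Ensembl identifier. Of 52000 shared identifiers, 2.90% had the same start as in GRCm38, so the build of the table's coordinates was not settled and they are not printed. Reads aligned to several places (9.10% to 11.5% of alignments) or ambiguous between genes (3.60% to 3.98%) were set aside in the authors' counting, which leaves genes with near copies, such as the VDACs, and overlapping genes uncertain.

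Counts were tested with edgeR 4.0.16 in R 4.3.3 after filterByExpr and TMM scaling, with the robust quasi-likelihood F test of EC-KO against FL over 6 libraries, two-sided, with Benjamini-Hochberg adjustment over all 18562 genes tested. Standard errors are the absolute log2 fold change over the square root of F, and so are not separate from the p-value. TPM values were computed from counts and deposited lengths, without TMM scaling. Shares and log2 ratios were compared by exact permutation over libraries. The genes, the lists and the tests were chosen with earlier results of these data known. Named were the 9 genes, for each list and direction at most 3 called genes, those of smallest p (otherwise the most abundant gene), genes of contact sites, the uniporter and calcium pumps whatever their result (1 of them, with its ratios, is not reported here), and the 3 nearest profiles of each called gene among the 9. The edgeR fit was also run on counts simulated from the means and dispersions of these data, with results not reported here. Alternatives were other scalings, filters and thresholds, DESeq2 1.42.0, limma-voom (limma 3.58.1), a fit without the robust option, a replicate block, and leaving out each library. Replicates of 1 group differed by more than sampling noise.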

Additional observations from a re-analysis of the deposited data

How the results depend on the processing

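Of the counts of called genes, 21 moved by over 1.5 times under other settings and 144 did not, and without single libraries 42 moved and 48 did not. The 9 genes had 1 called lower with the replicate block and 0 at a threshold of 0.01. Upper-quartile scaling gave 1 VDAC partner and 0 dehydrogenases lower, where dehydrogenases stand for the whole list with its phosphatases. Without a filter 1 gene of that list was higher. DESeq2 gave 1 store gene higher and 2 dehydrogenases lower. With the replicate block there were 2 IP3 genes and 1 store gene higher, 1 VDAC partner lower, and 1 dehydrogenase higher and 0 lower; all genes called numbered 3848. Micu2 lost its call (-0.61, adjusted p = 0.0531), and Itpr2 kept it (adjusted p = 0.0239). Same-numbered libraries correlated at 0.049, 0.070 and -0.18 in their deviations from group means, and not every library correlated best with its own number. Pairing by number was thus not seen, but 3 libraries a group are too few to exclude it. At 0.01 there were 2 IP3 genes higher and 2 lower, 1 store gene lower, 0 tethers higher and 3 lower, 1 VDAC partner lower, and 0 dehydrogenases higher and 0 lower; all genes called numbered 2015.

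Without each library in turn, the 9 genes had 0 to 1 called higher and 1 to 4 lower, IP3 genes 2 to 5 higher and 2 to 14 lower, store genes 0 to 1 higher and 1 to 9 lower, other uniporter genes 0 to 1 lower, tethers 0 to 1 higher and 4 to 9 lower, VDAC partners 1 to 3 lower, dehydrogenases 0 to 2 higher and 0 to 2 lower, and all genes 2547 to 6740 calls. Differences ranged from -0.20 to 0.22 for log2 Rmdn3/Vapb, from -0.79 to 2.703 percentage points for the Itpr1 share, from -6.22 to 23.2 TPM for summed IP3 receptors and from -0.82 to 1.06 points for the Vdac3 share, which was -0.49 points over raw counts without length. Signs also turned for genes with no call. Mcu was -0.0022 without a filter and -0.0027 without mitochondrially encoded genes in the library size, and Atp2a2 was 0.0059 with upper-quartile scaling and 0.0096 with library size only. Without single libraries Mcu ranged from -0.1628 (EC-KO 2) to 0.1062, Vdac2 from -0.0517 (EC-KO 2) to 0.0920, Atp2a2 from -0.2742 to 0.0136 (EC-KO 1) and Ghitm from -0.0257 (EC-KO 1) to 0.0793. Scaling moved the median of all genes by at most 0.09. The cause of these changes was not tested. With 3 libraries a group, permutation tests cannot go below p = 0.1.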

Other observations

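From the ER calcium store list, 4 further members are given here that were chosen after their values were seen. Atp2a1, which encodes the skeletal muscle pump SERCA1, was at 16.8, 21.3 and 68.9 CPM in EC-KO 1, 2 and 3, against 9.13, 9.78 and 20.8 CPM in FL 1, 2 and 3, so the groups overlapped (log2 fold change 1.43, adjusted p = 0.0776 in edgeR). The ryanodine receptor genes, calcium release channels best known from muscle, had log2 fold changes of 0.84 for Ryr1, 0.40 for Ryr2 and 1.01 for Ryr3 (adjusted p = 0.127, 0.268 and 0.150 in edgeR). None of these 4 genes was called, and in the whole list of 21 genes 0 rose and 6 fell (median -0.10).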
